A study of Mus musculus with 4 samples.

Results

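The genes described here are 10 markers of the deepest excitatory neurons of the mouse cortex, layer 6 corticothalamic neurons (Ntsr1, Foxp2, Syt6, Tle4, Rprm, Crym and Hs3st4) and layer 6b neurons (Cplx3, Moxd1 and Hcrtr2). They were taken by symbol from the 32531 gene names in the count tables, and all 10 were found, had counts and passed the filter on low counts. The samples came from adult mice of the line Cbln1-EGFP-Rpl10a-NIDA030, also labelled Cbln1-TRAP NIDA030, in which a transgene under control of Cbln1 puts EGFP on the ribosomal protein Rpl10a. Cerebral cortex was homogenised, and 2 libraries (IP 2 and IP 4) were made from RNA on ribosomes pulled down through the EGFP tag and 2 (input 2 and input 4) from total RNA. All 4 libraries carry the transgene, and no control without the tag or without the antibody was analysed here. The labels give neither the sex of the mice nor whether libraries of a group came from separate animals, so that p-values speak only of the spread among the libraries, part of which may be technical.

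Corticothalamic neurons of layer 6 send their axons to the thalamus and return cortical output to the relay nuclei that drive the cortex. Layer 6b lies beneath them, next to the white matter, and holds surviving neurons of the embryonic subplate, among them cells that respond to orexin. None of the 10 genes is restricted to these cells: Foxp2 is also made by striatal and thalamic neurons, Cplx3 by Lamp5 interneurons, and Crym by neurons of other layers and of the striatum and hippocampus.

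The 2 members that lay farthest apart between IP and input in opposite directions were Ntsr1 and Hs3st4, and the sequences upstream of their start sites are given to show the regulatory DNA of these loci. The Ntsr1 stretch is chr2:180499726-180499975 and the Hs3st4 stretch chr7:123982578-123982827, both on the plus strand of GRCm38.p6 and from RefSeq, written 5′ to 3′ and ending at the base before the RefSeq start. Capitals mark GC boxes (GGGCGG, searched on both strands).
Ntsr1: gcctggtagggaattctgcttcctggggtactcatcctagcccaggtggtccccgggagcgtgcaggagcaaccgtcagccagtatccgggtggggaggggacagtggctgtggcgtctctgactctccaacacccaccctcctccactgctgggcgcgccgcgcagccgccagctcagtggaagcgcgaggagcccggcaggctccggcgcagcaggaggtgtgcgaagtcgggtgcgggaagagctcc
Hs3st4: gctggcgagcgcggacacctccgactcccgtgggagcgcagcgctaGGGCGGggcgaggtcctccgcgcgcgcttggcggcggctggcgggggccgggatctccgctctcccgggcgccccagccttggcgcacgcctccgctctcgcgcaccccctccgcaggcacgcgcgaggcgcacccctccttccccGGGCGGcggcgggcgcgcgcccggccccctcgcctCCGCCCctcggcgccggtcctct
The Hs3st4 stretch had 82.0% G and C, 43 CpG dinucleotides and 3 GC boxes, and the Ntsr1 stretch had 68.4%, 18 and 0. Over 32536 promoter stretches of the same length the median was 52.4% G and C with 6 CpG, and 33.0% held a GC box. RefSeq windows were found for 8 of the 10 members, all but Foxp2 and Crym, and in each of them G and C made up at least 55.2%. Matches to a forkhead motif (TGTTTAC, in 3.17% of all stretches), a T-box motif (AGGTGTGA, 1.12%) and a cyclic AMP response element (TGACGTCA, 1.56%) were searched on both strands, and no window of a member held these letters.

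The immunopurification carried the driver gene. Cbln1 reached 99.3 and 68.7 CPM (counts scaled to the TMM-normalised library size) in IP 2 and IP 4, against 11.9 and 8.55 CPM in the inputs of the same numbers. Slc17a7, the vesicular glutamate transporter of cortical excitatory neurons, had 739 and 669 CPM in IP and 487 and 556 CPM in input. Gene counts ran from 39750468 to 47567384 per library, so that 3 counts were worth 0.0660 to 0.0790 CPM. Per the sample descriptions both IP libraries were on one lane and both inputs on another, so lane, the kind of RNA and the kind of cells all go with the group and cannot be told apart. In such bulk samples a higher level from more cells of a type cannot be told apart from more RNA per cell.

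The layer 6 markers did not move as a block. Of the 10 members 2 rose in IP (Ntsr1 and Crym), 4 fell (Hs3st4, Foxp2, Hcrtr2 and Cplx3) and 4 did not pass the threshold, a Benjamini-Hochberg adjusted p of 0.05 in edgeR's quasi-likelihood test of 2 IP against 2 input libraries. Over all 16600 genes tested, 23.4% rose and 22.4% fell, so that calls in either direction were common among genes at large. The median log2 fold change of the members was -0.16, against -0.04 over all genes tested. Summed over the 10 genes, the level was 307 and 326 CPM in IP and 317 and 317 CPM in input, so the sums of the groups overlapped while single members lay up to 4.54-fold apart.

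**Figure D1:**
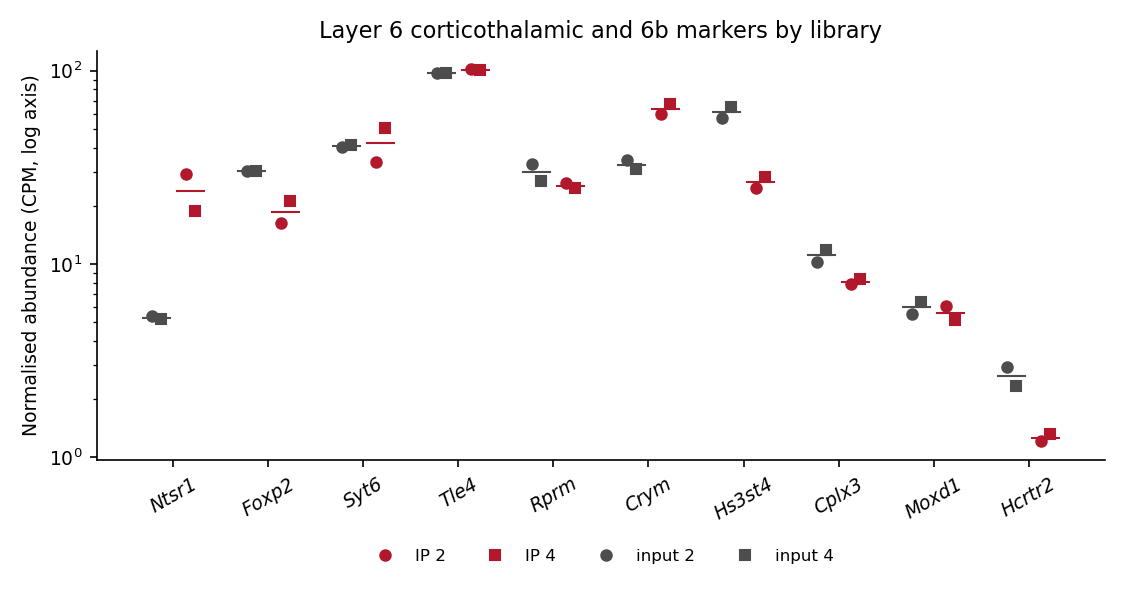
Normalised abundance of the 10 markers in CPM on a log axis, with 1 symbol per library (circles for number 2, squares for number 4), input in grey, IP in red, and a line at the group mean. Ntsr1 lies between 18.7 and 29.2 CPM in IP and near 5 CPM in input, whereas Hs3st4 lies lower in both IP libraries and Tle4 between 96.9 and 102 CPM throughout.

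The receptor genes of the set went in opposite directions. Ntsr1, the high-affinity receptor for the peptide neurotensin, whose regulatory DNA is widely used to label layer 6 corticothalamic cells, was counted 1110 times in IP 2, 810 times in IP 4, 244 times in input 2 and 224 times in input 4. On the CPM scale these were 29.2 and 18.7 in IP and 5.37 and 5.18 in input. Both IP libraries stood far above both inputs, although the IP libraries themselves differed 1.56-fold. The gene rose 4.54-fold, or by 2.18 on the log2 scale (SE 0.20, edgeR adjusted p = 5.74e-08), and ranked 51 from the top of 16600 genes. It is a protein-coding gene (ENSMUSG00000027568.9) on the plus strand of chromosome 2, from 180499976 to 180544980 on GRCm38, in 4 exon blocks that no other annotated gene overlaps.

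Hcrtr2, the orexin receptor that marks part of layer 6b, was the least abundant member, with 46 and 57 counts in IP and 134 and 101 in input. Its levels were 1.21 and 1.32 CPM in IP and 2.95 and 2.33 CPM in input, and the groups did not overlap. It fell by 1.06 on the log2 scale (SE 0.38, edgeR adjusted p = 0.027), with a 95% interval from -1.85 to -0.27. It no longer passed when IP 2 (edgeR adjusted p = 0.063), input 2 (adjusted p = 0.215) or input 4 (adjusted p = 0.0507) was left out. Hcrtr2 (ENSMUSG00000032360.16) occupies 76225880 to 76323856 of chromosome 9, minus strand.

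Of the other genes of both peptide systems, Nts and Hcrt, which encode the ligands, were scarce. Nts averaged 1.42 CPM in IP and 1.38 CPM in input (log2 fold change 0.05, adjusted p = 0.94), and Hcrt, at 0.0463 and 0.101 CPM, was too low to be tested. Ntsr2, the low-affinity neurotensin receptor that astrocytes express, fell by 0.50 (SE 0.12, edgeR adjusted p = 0.00201). Of the 7 genes of the neurotensin list, which also holds the sortilin family of sorting receptors, 4 rose and 1 fell, with a median of 0.29. Sort1, sortilin, rose by 0.61 (SE 0.09, edgeR adjusted p = 1.9e-05). Scaled by library sizes alone, 1 of the 7 rose and 2 fell. Of all 16600 genes tested, 2151 rose and 5910 fell under that scaling, with a median of -0.29. Hcrtr1, the other orexin receptor, was at 0.74 with TMM and did not pass (SE 0.54, adjusted p = 0.277).

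Among the transcriptional regulators, Foxp2 fell and Tle4 did not pass. Foxp2, a forkhead repressor of deep-layer neurons, had 16.3 and 21.1 CPM in IP and 30.2 and 30.4 CPM in input. Both IP libraries lay below both inputs. The log2 fold change was -0.70 (SE 0.14, edgeR adjusted p = 0.000583), a 1.62-fold decrease. Tle4, a corepressor of the Groucho family, was the most abundant member in CPM, with 102 and 101 in IP and 97.7 and 96.9 in input. Its IP libraries lay just above its inputs, and the log2 fold change of 0.06 did not pass (95% interval -0.14 to 0.26, edgeR adjusted p = 0.662). Scaled by library sizes alone, which shifts the median of all genes by -0.26, Tle4 stood at -0.20.

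Foxp2 (ENSMUSG00000029563.16) occupies 14901349 to 15441977 of chromosome 6 (plus strand), and Tle4 (ENSMUSG00000024642.17) 14448150 to 14598051 of chromosome 19 (minus strand). Their relatives were not of one direction. Of 7 tested genes of the FoxP and TLE families, 3 rose (Foxp4, Tle3 and Tle6, by 0.72, 0.43 and 1.19), 1 fell (Foxp1, at -0.28) and 3 did not pass, with a median of -0.01. With library sizes alone Foxp4 was the one of the 3 that kept its call. Foxp1 lost its call without IP 2, input 2 or input 4, Tle6 without IP 4 or input 4, and Tle3 without input 2.

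Of the other corticothalamic members, Crym rose and Rprm did not pass. Crym, the thyroid hormone-binding mu-crystallin, had 59.8 and 67.5 CPM in IP and 34.4 and 30.9 CPM in input. Each IP library was above each input. It rose 1.95-fold (log2 fold change 0.96, SE 0.12, edgeR adjusted p = 1.94e-06). Rprm, or reprimo, which is known to arrest the cell cycle downstream of p53, had 26.1 and 24.8 CPM in IP and 32.8 and 27.0 CPM in input. The groups did not overlap, but the fold change of -0.23 did not pass (95% interval -0.51 to 0.05, edgeR adjusted p = 0.163). With library sizes alone it did, at -0.49 (adjusted p = 0.00439).

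Rprm is a gene of 1 exon (ENSMUSG00000075334.2) at 54084093 to 54085552 of chromosome 2. Crym (ENSMUSG00000030905.5) occupies 120186380 to 120202111 of chromosome 7, and both are on the minus strand. Rprml, a paralog of Rprm, rose by 0.52 (SE 0.13, edgeR adjusted p = 0.00222), a call that library sizes alone did not give. Of 7 genes that bind, convert or transport thyroid hormone, 1 rose and 1 fell (median -0.18), and with library sizes alone 1 rose and 3 fell. With TMM the gene that fell was Dio2, the activating deiodinase of glial cells, at -1.38 (SE 0.12). Dio3, the inactivating deiodinase, rose by 1.66 (SE 0.54) from a level under 1 CPM in input, and lost the call without IP 4 or input 2.

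Hs3st4, which adds 3-O-sulfate to heparan sulfate chains, was the member that fell most. It had 24.7 and 28.3 CPM in IP and 57.0 and 64.6 CPM in input, so each IP library held less than any input library. The decrease was 2.29-fold (log2 fold change -1.20, SE 0.12, edgeR adjusted p = 2.39e-07). The gene (ENSMUSG00000078591.1) has 2 exon blocks on the plus strand of chromosome 7, from 123982869 to 124398989, and 130 of its 3189 exon bases (4.08%) are shared with the antisense gene Gm27040, whose reads cannot be told apart if strand was not used. Of 5 related sulfotransferase genes tested, 2 fell and 0 rose. Hs3st3a1 fell by 1.47 (SE 0.43) and Hs3st5 by 0.73 (SE 0.27), both from levels under 5 CPM, and Hs3st2, at 0.33, did not pass (adjusted p = 0.0818). The Hs3st3a1 call was lost without IP 2, and the Hs3st5 call without any one of IP 4, input 2 and input 4.

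Of the 2 genes of vesicle release in the set, Cplx3 passed the threshold narrowly and Syt6 did not. Syt6, a synaptotagmin, had 33.7 CPM in IP 2 and 50.4 CPM in IP 4, against 40.2 and 41.5 CPM in input. The input values lay between the IP values, and the log2 fold change was 0.04 (95% interval -0.27 to 0.35, edgeR adjusted p = 0.836). Its sign followed the library left out, from -0.27 without IP 4 to 0.32 without IP 2. Syt6 (ENSMUSG00000027849.18, chromosome 3, plus strand, 103575231 to 103645569) shares 505 of its 5828 exon bases (8.67%) with Atg4a-ps on the opposite strand.

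Cplx3, a complexin, had 7.87 and 8.35 CPM in IP and 10.3 and 11.9 CPM in input. The groups did not overlap and the gene fell by 0.45 (SE 0.18), just past the threshold (edgeR adjusted p = 0.0493). The call was lost in 8 of 13 alternative settings, among them the omission of any one library (adjusted p from 0.0569 without input 2 to 0.305 without input 4) and DESeq2 (0.0784). Cplx3 (ENSMUSG00000039714.9) occupies 57599992 to 57606281 of chromosome 9, minus strand. The broadly expressed complexin Cplx1 rose by 0.60 (SE 0.09), whereas Cplx2, the most abundant, had a log2 fold change of 0.16 (adjusted p = 0.176). Of 15 other synaptotagmin genes tested, 5 rose and 2 fell (median -0.03). With library sizes alone 5 rose and 5 fell (median -0.29, against -0.29 over all genes tested). Syt5 rose by 1.25 (SE 0.10), and Syt14 fell by 0.78 (SE 0.12).

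Moxd1, a relative of dopamine beta-hydroxylase, had 6.05 and 5.16 CPM in IP and 5.54 and 6.38 CPM in input. These ranges overlapped, and the log2 fold change was -0.09 (95% interval -0.55 to 0.37, edgeR adjusted p = 0.767). Moxd1 (ENSMUSG00000020000.7) occupies 24223517 to 24302790 of chromosome 10, plus strand. Of the 3 layer 6b members 2 fell, Cplx3 and Hcrtr2, and neither passed when IP 2, input 2 or input 4 was left out. The Moxd1 estimate turned positive without IP 4 (0.032) or without input 4 (0.024). The summed level of the 3 genes was 15.1 and 14.8 CPM in IP against 18.8 and 20.6 CPM in input. The 7 corticothalamic members had 2 that rose, 2 that fell and 3 that did not pass, with a sum of 291 and 312 CPM in IP and 298 and 296 CPM in input. Both IP libraries lay above both inputs for 3 members and below them for 5, where 35.3% and 37.8% of all genes tested did so.

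**Figure D2:**
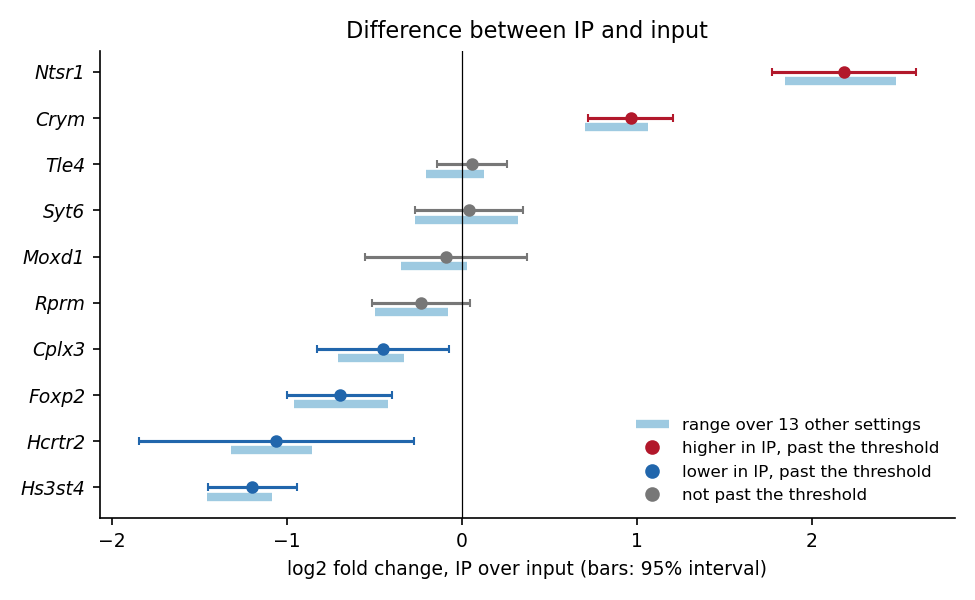
Log2 fold change of IP over input for each marker with its 95% interval from the edgeR fit, red where higher and blue where lower past the threshold, grey otherwise. The pale bar under each point spans the values over 13 other settings, and for Ntsr1, Crym, Rprm, Foxp2, Hs3st4, Cplx3 and Hcrtr2 it stays on one side of 0.

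Because counts grow with transcript length, levels of different genes were compared per kilobase of exon model (RPKM, from gene models of GENCODE vM21). In input, Rprm (20.5 ± 2.83 RPKM, SD, n = 2) and Hs3st4 (19.1 ± 1.69 RPKM) were the highest and overlapped each other, followed by Tle4 at 17.1 ± 0.0997 RPKM and Crym at 9.62 ± 0.734 RPKM. Syt6 had 7.01, Cplx3 3.75, Moxd1 1.86, Foxp2 1.85, Ntsr1 1.35 and Hcrtr2 0.429 RPKM, and of these neighbours only Moxd1 and Foxp2 overlapped. Ntsr1 was thus the lowest but Hcrtr2 in total cortical RNA.

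In IP the order was another. Crym (18.8 ± 1.61 RPKM, SD, n = 2), Tle4 (17.7 ± 0.106 RPKM) and Rprm (17.4 ± 0.655 RPKM) led. Crym overlapped Tle4 and Tle4 overlapped Rprm, whereas Rprm stood apart from the next gene. Hs3st4 followed at 8.32 ± 0.789 RPKM, then Syt6 at 7.21 ± 2.04 RPKM and Ntsr1 at 6.12 ± 1.89 RPKM, where Hs3st4 overlapped Syt6 and Syt6 overlapped Ntsr1. Cplx3 (2.75 RPKM), Moxd1 (1.75 RPKM), Foxp2 (1.14 RPKM) and Hcrtr2 (0.205 RPKM) stood apart from their neighbours. The 16346 bases of the Foxp2 model join the exons of all its annotated transcripts, so its level per length is low by construction if shorter forms were counted.

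**Figure D3:**
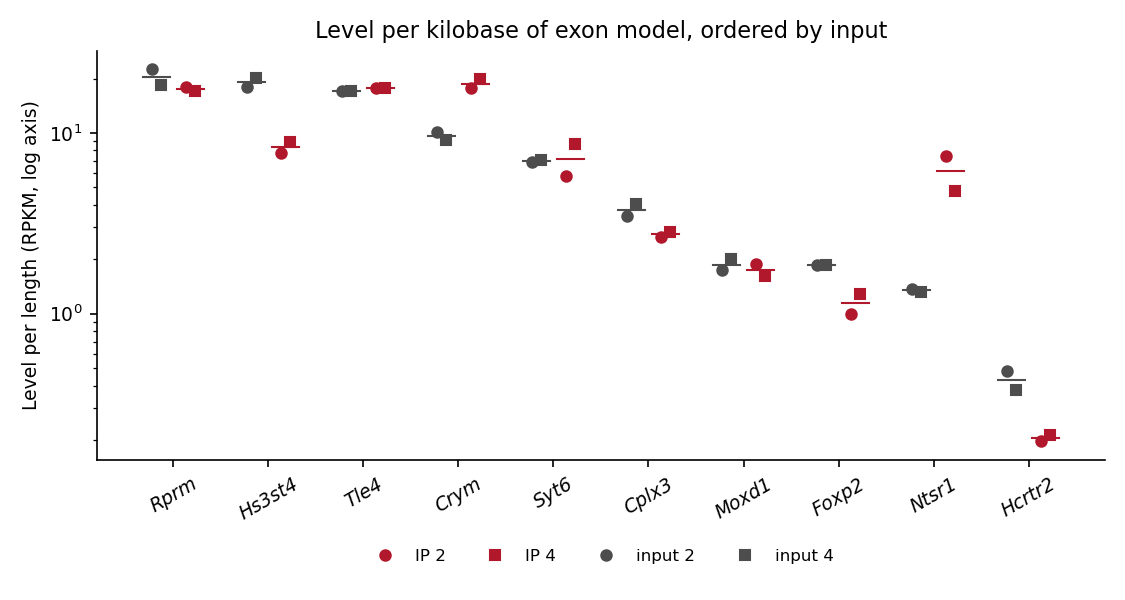
Level per kilobase of exon model (RPKM, log axis) of each marker in each library, in the order of the input means, with input in grey and IP in red and a line at the group mean. Ntsr1 lies lowest but Hcrtr2 in input, at 1.35 RPKM, and at 6.12 RPKM in IP, and Hs3st4 stays in the upper part of the order while falling from 19.1 to 8.32 RPKM.

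Ratios within a library do not depend on how libraries are scaled to each other. Ntsr1 had 1.18 and 0.662 counts per Hs3st4 count in IP 2 and IP 4, and 0.0942 and 0.0801 in input 2 and input 4, a difference of 10.2 times. Per Foxp2 count there were 1.80 and 0.888 Ntsr1 counts in IP and 0.178 and 0.170 in input, and 3.68 and 3.20 Crym counts in IP against 1.14 and 1.02 in input. The ratio of Tle4 to Foxp2 was 6.25 and 4.78 in IP and 3.23 and 3.19 in input. For these 4 ratios both IP libraries lay above both inputs, and an exact permutation test of 2 against 2 libraries cannot give a two-sided p below 0.333. Foxp2 and Hs3st4 themselves fell, so these ratios restate the fold changes above and are not separate evidence. Syt6, Rprm, Cplx3 and Moxd1 per Foxp2 count were also higher in IP. Hs3st4 per Foxp2 count was lower in IP, at 1.52 and 1.34 against 1.88 and 2.12 in input. So was Hcrtr2, at 0.0744 and 0.0625 against 0.0975 and 0.0767. Set against the driver gene, Ntsr1 was lower in IP, with 0.294 and 0.273 Ntsr1 counts per Cbln1 count in IP and 0.450 and 0.605 in input.

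The spread between the IP libraries was wide for 3 members. Ntsr1 was higher in IP 2 by 0.64 on the log2 scale, and Syt6 and Foxp2 were lower there by 0.58 and 0.38. Among 10463 genes within the range of the members' mean levels, the median absolute difference between the IP libraries was 0.16, and 4.91%, 6.41% and 16.5% of genes were at least as far apart as these 3. Between the input libraries the 3 genes differed by at most 0.05. Cbln1 was also higher in IP 2 than in IP 4, by 0.53, and in input 2 than in input 4, by 0.48.

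Other genes of the same layers were taken from fixed lists, chosen with earlier results of these data known. Of 10 further corticothalamic and deep-layer genes tested, 2 rose and 5 fell (median -0.39). With library sizes alone 1 rose and 7 fell (median -0.65, against -0.29 over all genes tested). Fezf2, a zinc finger regulator of subcortical projection neurons, rose by 0.56 (SE 0.11, edgeR adjusted p = 0.000449). Tbr1, the T-box factor that specifies layer 6, rose by 0.31 (SE 0.09, edgeR adjusted p = 0.00805), a call that library sizes alone did not give. The 5 genes that fell with TMM were the transcription factor genes Nfia (-1.09), Sox5 (-0.79), Zfpm2 (-0.58) and Nfib (-0.45), as well as Sla (-0.46), an adaptor protein gene. Of these, Sla kept its call in 5 of 13 settings and lost it without any one of the libraries. Zfpm2 lost its call without input 4, and Nfib with a correction for GC content and length.

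Of 12 further layer 6b genes, 4 rose and 0 fell (median 0.22). Nr4a2, a nuclear receptor made by subplate-derived and claustral neurons, averaged 318 CPM in IP against 132 CPM in input and rose by 1.27 (SE 0.10). Inpp4b, a phosphoinositide phosphatase, rose by 0.77 (SE 0.15), and Ctgf, a secreted matrix protein and classical layer 6b marker, by 0.59 (SE 0.18, edgeR adjusted p = 0.00959). Kcnab1, a potassium channel subunit, rose by 0.30 (SE 0.11). Scaled by library sizes alone, 2 of the 12 rose and 1 fell, with a median of -0.04, against -0.29 over all genes tested. The Ctgf call was lost without IP 4 or input 4, and the Kcnab1 call without IP 4 or input 2. With TMM, the 3 layer 6b members described above held 0 that rose, and this longer list held 0 that fell and 8 that did not pass. Over all genes tested, 23.4% rose and 22.4% fell. The difference between the lists was not tested.

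Markers of other cells that share these genes were set beside them. Of 8 genes of striatal projection neurons, which also make Foxp2, 0 rose and 6 fell (median -0.62), and the summed level of the list was 245 and 272 CPM in IP against 388 and 418 CPM in input. Drd2, a dopamine receptor, fell by 1.24 (SE 0.22) and Rgs9, a regulator of G protein signalling, by 0.98 (SE 0.12). Of 7 thalamic genes tested, 3 rose (Prkcd, Slc17a6 and Calb2) and 2 fell, with a median of -0.21. The 2 that fell were Tcf7l2, by 1.04 (SE 0.17), and Rora, by 0.54 (SE 0.09), and both kept their call in 13 of 13 settings. With library sizes alone 0 rose and 4 fell (median -0.46, against -0.29 over all genes tested). The Prkcd call was also lost without IP 2 or input 2, and the Slc17a6 call without IP 2 or input 4. The groups overlapped for Calb2, whose call was kept in 6 of 13 settings. The thalamic list had sums of 242 and 232 CPM in IP and 311 and 312 CPM in input. Most of these sums was Rora, with 168 and 164 CPM in IP and 239 and 244 CPM in input. Gbx2, a defining thalamic factor, had 0 counts in all 4 libraries. The part of striatal or thalamic RNA in the decrease of Foxp2 was not tested.

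Of 9 genes of Lamp5 and other GABAergic neurons, which share Cplx3, 1 rose and 2 fell (median 0.16). With library sizes alone 1 rose and 4 fell (median -0.10, against -0.29 over all genes tested). Their summed level was 846 and 1035 CPM in IP and 961 and 993 CPM in input. Much of it was Gad2, with 376 and 514 CPM in IP and 502 and 551 CPM in input. Lamp5 itself had a log2 fold change of 0.16 (SE 0.10, adjusted p = 0.194), Reln, a secreted guidance protein, rose by 0.89 (SE 0.10), and Npy, a neuropeptide gene, fell by 0.85 (SE 0.16). The part of these interneurons in the Cplx3 value was not tested. Of 8 genes of a hippocampal list, 4 rose and 1 fell (median 0.21), with sums of 655 and 598 CPM in IP and 371 and 384 CPM in input. Much of these sums was Neurod6, with 363 and 311 CPM in IP and 125 and 127 CPM in input. Fibcd1 had 20.8 and 12.5 CPM in IP and 5.46 and 4.27 CPM in input, and rose by 1.77 (SE 0.22). Prox1 was the gene that fell, by 0.35, and its call was kept in 8 of 13 settings. Whether these 8 genes are restricted to hippocampal neurons was not tested, nor was the part of hippocampal RNA in the rise of Crym. Of 9 genes of layer 6 intratelencephalic and Car3 neurons, which lie among the corticothalamic cells, 7 rose and 0 fell (median 0.76). Summed, they gave 434 and 416 CPM in IP against 260 and 264 CPM in input. Car3 itself did not pass (edgeR adjusted p = 0.162), with 59 and 49 counts in IP against 16 and 43 in input. Osr1 did not pass either, and its groups overlapped. Scaled by library sizes alone, 6 rose and 0 fell (median 0.50, against -0.29 over all genes tested). Synpr lost its call under that scaling, and also without input 2. Whether these 9 genes are restricted to such neurons was not tested.

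Glial and vascular genes were counted in the same way. Of 6 oligodendrocyte genes 2 rose and 4 fell, of 6 astrocyte genes 2 rose and 2 fell, of 6 microglia genes 1 rose and 2 fell, and of 6 endothelial and mural genes 0 rose and 0 fell. With library sizes alone, 3 astrocyte genes and 2 endothelial and mural genes fell. Their summed levels in IP and input were 1233 to 1261 and 1506 to 1599 CPM, 296 to 330 and 333 to 338 CPM, 38.8 to 43.7 and 39.1 to 42.7 CPM, and 18.5 to 26.7 and 23.0 to 29.6 CPM, in that order of lists.

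**Figure D4:**
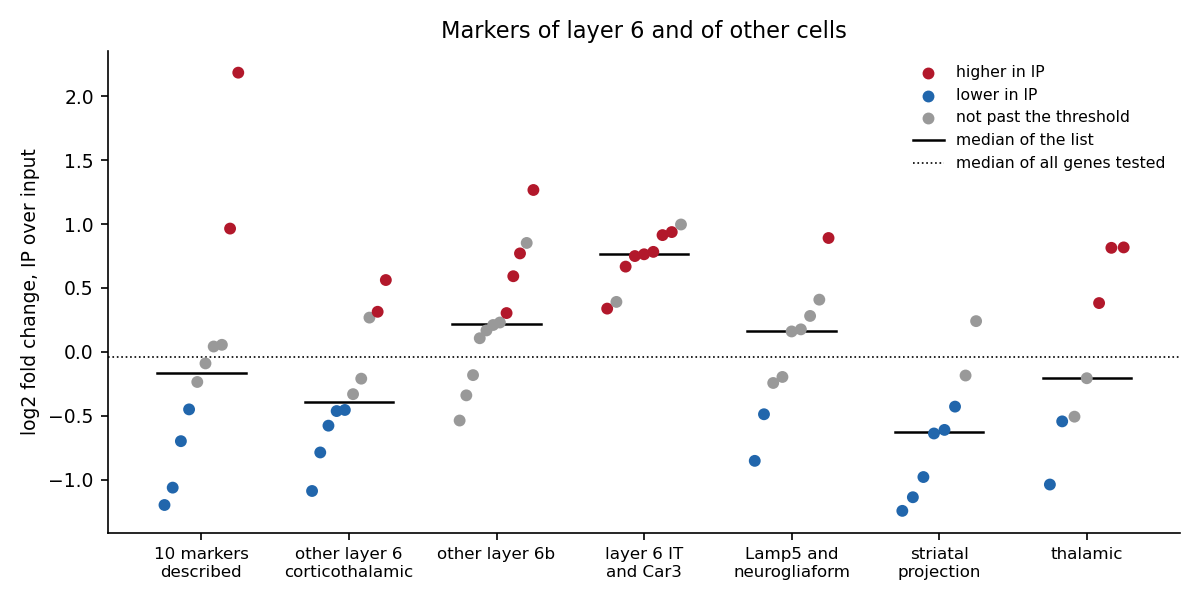
Log2 fold change of IP over input for each gene of the 10 markers and of 6 other lists, 1 point per gene, red where higher and blue where lower past the threshold, with a line at the list's median and a dotted line at the median of all genes tested (-0.04). The 10 markers spread from -1.20 to 2.18, whereas the layer 6 intratelencephalic and Car3 genes (IT) all lie above 0.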

How the data were processed

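RNA on tagged ribosomes (IP, 2 libraries) was compared with total cortical RNA (input, 2 libraries). The authors deposited whole-number read counts per gene symbol, 1 table per library, not normalised. The submitters' processing notes name STAR (2.0.0e), HTSeq and mm10. Annotation and strand setting were not given in the sources used here. Reads that named no gene (45.9% to 52.0% of all records) were left out, and their kinds differed between the groups. Those not uniquely aligned were 37.0% and 38.0% of records in IP and 32.1% and 30.7% in input, so genes with close copies are undercounted. Reads outside any annotated feature were 7.31% and 7.54% in IP and 14.9% and 13.5% in input. Ambiguous reads, which fit more than 1 gene, were 1.54% in both IP libraries and 5.07% and 5.09% in input. Replicates were not copies of each other (chi-square per degree of freedom 21.2 and 14.5).

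Counts were fitted with edgeR 4.0.16 in R 4.3.3: TMM, filterByExpr within groups (at least 10 counts, total of at least 15), and a two-sided quasi-likelihood test without a block, adjusted over the 16600 genes tested. Intervals are 95%, from the fit's standard error. The biological coefficient of variation was 12.5%, with 2 residual degrees of freedom. Alternatives were DESeq2 1.42.0, its size factors, library sizes alone, 2 other filters, a replicate block, omission of each library, omission of Rn45s and 5 genes far above the rest, thinning, and, chosen after seeing the data, a correction for GC content and length. Gene models came from GENCODE vM21 on GRCm38, promoters from RefSeq. The members and lists were chosen with earlier results of these data known. Besides the members, up to 3 genes of each list were to be named (called, mean of at least 1 CPM, largest absolute fold change, otherwise the 2 most abundant). Further genes were named after their values were seen. Symbols Drd1a, Trbc2 and Ccn2 of the lists did not match a name in the tables.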

Additional observations from a re-analysis of the deposited data

How the results depend on the processing

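Over 13 alternative settings, Ntsr1 (log2 fold change 1.85 to 2.48), Crym (0.70 to 1.07), Foxp2 (-0.96 to -0.42) and Hs3st4 (-1.46 to -1.09) kept their direction and their call. Cplx3 lost its call with DESeq2 (-0.45), with DESeq2 size factors (-0.45), without a filter on low counts (-0.43) and without Rn45s and 5 genes far above the rest (-0.45). It also lost it without any one library (-0.54 to -0.33). Hcrtr2 lost its call with the GC and length correction (-0.86) and without IP 2, input 2 or input 4 (-1.21 to -0.88 over the omissions). The count of members that fell was 2 to 3 without 1 library, against 4.

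Scaling by library sizes alone gave 2151 genes that rose and 5910 that fell, a members' median of -0.42, a change of sign for Syt6 and Tle4 (-0.22 and -0.20) and a call for Rprm (-0.49). Under the GC and length correction, 2434 genes fell and 4329 rose, on 14616 genes with a gene model. With a minimum count of 50, Syt6 and Tle4 were at -0.018 and -0.0045. Omitting 1 library moved Syt6 between -0.27 and 0.32 and Moxd1 between -0.19 and 0.032, and all genes that rose between 3323 and 3720 and that fell between 2670 and 3421. Where 1 library of a group remained, it was assumed to vary like the other group. The cause of these changes was not tested.

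The numbers 2 and 4 are not stated to mark shared animals. Same-numbered libraries deviated together with a correlation of 0.19 across 10681 genes of at least 5 CPM. With a replicate block 4314 genes rose and 4037 fell, and 2 members rose and 4 fell. At the level of Hcrtr2, 46 to 134 counts per library limit the precision.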
